A study of Triticum turgidum subsp. durum with 96 samples.

Results

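MIR1432 is a microRNA (miRNA) family of the grasses. The 2 MIR1432 sequences described here are those with that family number among the 110 conserved miRNA sequences, of 50 families, listed for durum wheat (Triticum turgidum subsp. durum). The family was chosen with earlier results of these data known. One carries the name of the rice sequence, Osa-miR1432 (Oryza sativa), and the other that of the sorghum and maize sequence, Sbi-miR1432 (Sorghum bicolor and Zea mays). Both were followed through 96 small RNA libraries of 48 plants, each of which gave 1 flag leaf and 1 developing head. The plants belonged to 4 genotypes, Tamaroi and Yawa, classed as tolerant to water deficit stress, and EGA Bellaroi and Tjilkuri, classed as sensitive. For 15 d, control plants were held at 12% soil water content and stressed plants at 6%. Each of the 16 groups of genotype, tissue and treatment held 6 libraries, 3 from each of 2 seasons, and plant numbers in the labels tie each leaf to its head. Libraries are named here by season and letter (1a to 2c).

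Plant miRNAs are cut from hairpin precursors and guide Argonaute proteins to messenger RNAs with a near-complementary site, most of which are then cleaved. In rice, miR1432 is known for targeting transcripts of EF-hand proteins, calcium-binding proteins that take part in calcium signalling, and an acyl-CoA thioesterase gene linked to grain filling. The flag leaf, the last leaf to unfold, supplies much of the sugar that fills the grain, while the developing head holds the floral organs. Target transcripts were not measured here.

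The 2 mature sequences are shown because values are given for each of them below. They are printed 5′ to 3′ as deposited, in DNA letters, with the seed (bases 2 to 8) in capitals.
Osa-miR1432: aTCAGGAGagatgacaccgac
Sbi-miR1432: cTCAGGAGagatgacaccgac
Both are 21 nt long and they differ by 1 base, A1C, counted from the 5′ end with the Osa-miR1432 base first. The seed is shared by these 2 sequences and by no other of the 110. The closest listed sequence of another family, Gma-miR393h, has 11 mismatches to either. Of the 110 sequences, 67 begin with T, 17 with A, 16 with C and 10 with G, so neither MIR1432 sequence has the commonest first base. In Arabidopsis the first base of a small RNA influences which Argonaute protein takes it up.

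Levels are given in RPM, that is, as reads in every 1000000 small RNA reads that a library held. The libraries held from 0.61 to 36.1 M reads (M for 1000000), with a median of 5.22 M, so that 1 read was worth between 0.0277 and 1.64 RPM. All 110 conserved miRNAs together made up 30086 to 38650 RPM in the means of the flag leaf groups and 11528 to 19327 RPM in the head groups, with the lowest library at 5514 RPM and the highest at 62618 RPM. No library was treated as a copy of another, the closest pair correlating at 0.996. Wilson intervals of read shares below cover counting error only. The labels name separate plants as the replicates.

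MIR1432 was a flag leaf miRNA in these plants. Every one of the 48 plants had more Osa-miR1432 in its flag leaf than in its head, and the same held for Sbi-miR1432. Osa-miR1432 stood at 5.84 to 474 RPM in the 48 flag leaf libraries, with a median of 130 RPM (39 to 3999 reads), and at 0 to 21.3 RPM in the 48 head libraries, with a median of 4.45 RPM (0 to 231 reads). Sbi-miR1432 stood at 2.55 to 286 RPM in flag leaves and at 0 to 17.6 RPM in heads, with medians of 80.8 and 4.48 RPM. In libraries of whole organs, fewer cells with the miRNA and less of it per cell cannot be told apart.

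**Figure D1:**
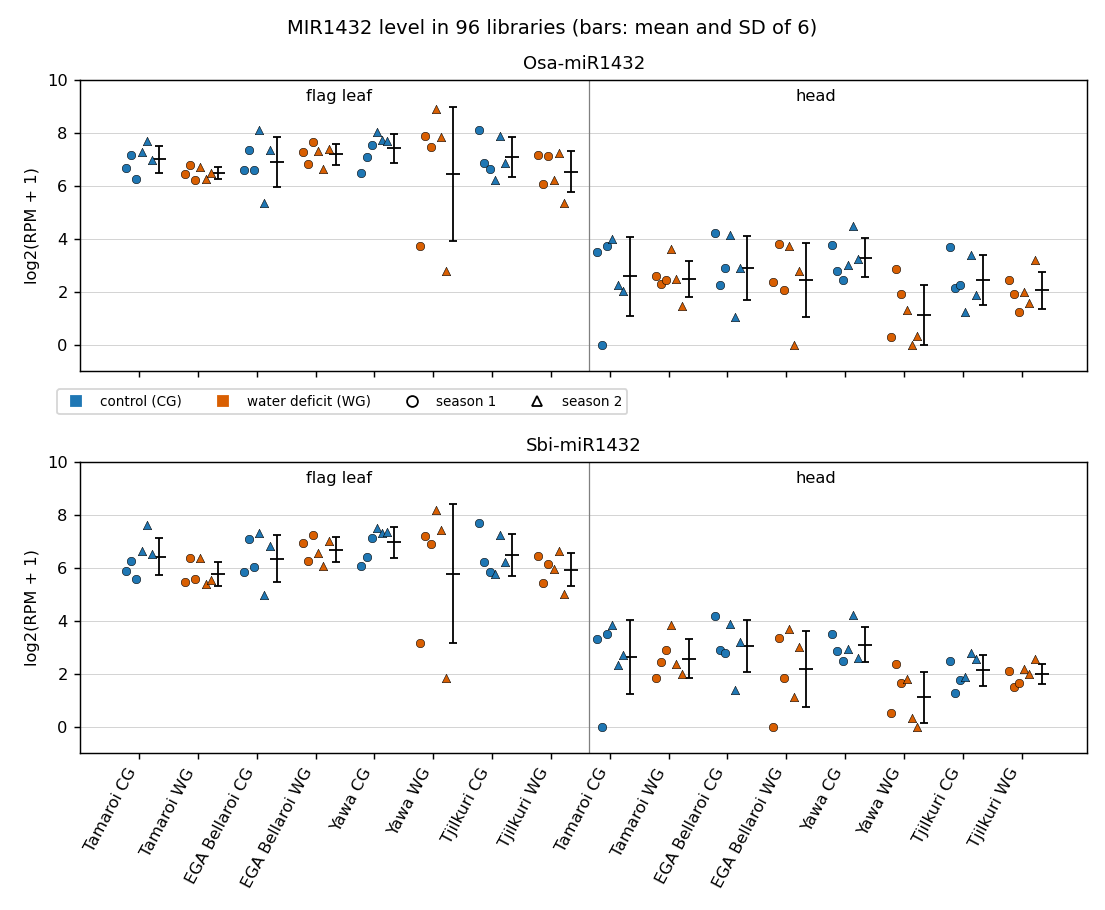
Level of Osa-miR1432 (top) and Sbi-miR1432 (bottom) as log2(RPM + 1) in each of 96 libraries, by genotype and treatment (CG control, WG water deficit), flag leaf on the left and head on the right; circles are season 1, triangles season 2, and the bars are the mean and SD of 6 libraries. The 8 flag leaf groups lie above the 8 head groups, and stressed Yawa flag leaves split into 4 high and 2 low libraries, 1a and 2c.

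Over the 16 groups, mean Osa-miR1432 was highest in stressed Yawa flag leaves, 189 ± 173 RPM (SD, n = 6), followed by control Yawa flag leaves at 180 ± 59.8 RPM. The other flag leaf groups followed in the order Tjilkuri control (152 ± 83.1), EGA Bellaroi under water deficit (148 ± 37.6), EGA Bellaroi control (139 ± 82.1), Tamaroi control (133 ± 45.3), Tjilkuri under water deficit (102 ± 47.2) and Tamaroi under water deficit (89.4 ± 14.2 RPM). All heads came below, from Yawa control at 9.99 ± 6.20 RPM to stressed Yawa heads at 1.84 ± 2.42 RPM. Of the 15 pairs of neighbours in this order, 14 differed by less than the larger SD of the pair and had overlapping ranges. The exception was the step from the lowest flag leaf group to the highest head group. Sbi-miR1432 had the same single step, between 56.1 ± 19.2 RPM in stressed Tamaroi flag leaves and 8.78 ± 5.66 RPM in control EGA Bellaroi heads.

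The difference between tissues was tested in each of the 8 combinations of genotype and treatment with limma on log2(RPM + 1), adjusted by Benjamini-Hochberg over the 110 miRNAs, with a threshold of 0.05. Both sequences were lower in the head in 8 of 8 comparisons. The log2 difference, head minus flag leaf, ranged from -5.32 ± 0.61 (SE) in stressed Yawa plants to -3.98 ± 0.61 in control EGA Bellaroi plants for Osa-miR1432 (limma adjusted p from 2.4e-12 to 2.5e-08). For Sbi-miR1432 it ranged from -4.66 ± 0.59 in stressed Yawa plants to -3.21 ± 0.59 in stressed Tamaroi plants (limma adjusted p from 7.5e-11 to 1.9e-06). Expressed as a ratio of mean RPM, flag leaves held 16.0 to 28.0 times as much Osa-miR1432 as heads in 7 of the comparisons and 103 times as much in stressed Yawa. Taken between group medians, the ratio in stressed Yawa was 237.

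A lower level in the head was common among the listed miRNAs, which gives the scale for these values. The share of the 110 miRNAs that were lower in the head was 45.5% in Tamaroi control, 54.5% in Tamaroi under water deficit, 58.2% in EGA Bellaroi control, 54.5% in EGA Bellaroi under water deficit, 44.5% in Yawa control, 58.2% in Yawa under water deficit, 48.2% in Tjilkuri control and 49.1% in Tjilkuri under water deficit. Being called is therefore shared with about as many miRNAs as not. The size of the change was less common. Averaged over the 8 comparisons the log2 difference was -4.46 ± 0.22 (SE) for Osa-miR1432 and -3.95 ± 0.21 for Sbi-miR1432, beside a median of -0.98 over all 110.

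In size on the log2(RPM + 1) scale, Osa-miR1432 ranked 3rd and Sbi-miR1432 6th of the 110. Osa-miR1432 had the largest difference among those lower in the head. The 2 sequences past Osa-miR1432 moved the other way. They were Bdi-miR319b (6.30) and Zma-miR319a (5.46), of a family that regulates TCP transcription factors. Between Osa-miR1432 and Sbi-miR1432 stood Bdi-miR5200 (-4.07), which targets transcripts of the flowering gene FT in Brachypodium, and Zma-miR398b (-4.00), of a family that regulates copper-zinc superoxide dismutases. This order depends on the scale. By ratio of mean RPM, flag leaf to head, Osa-miR1432 stood at 23.3, Bdi-miR827-5p at 17.8, Sbi-miR1432 at 17.6, Bdi-miR5200 at 17.3 and Zma-miR398b at 10.65. The other grass and monocot families listed, 17 sequences of 11 families, held 6 that were lower and 1 that was higher in the head in all 8 comparisons, and their averages ranged from -4.07 for Bdi-miR5200 to 1.65 for Bdi-miR1878. Over all 110, 41 sequences were lower and 6 higher in all 8.

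**Figure D2:**
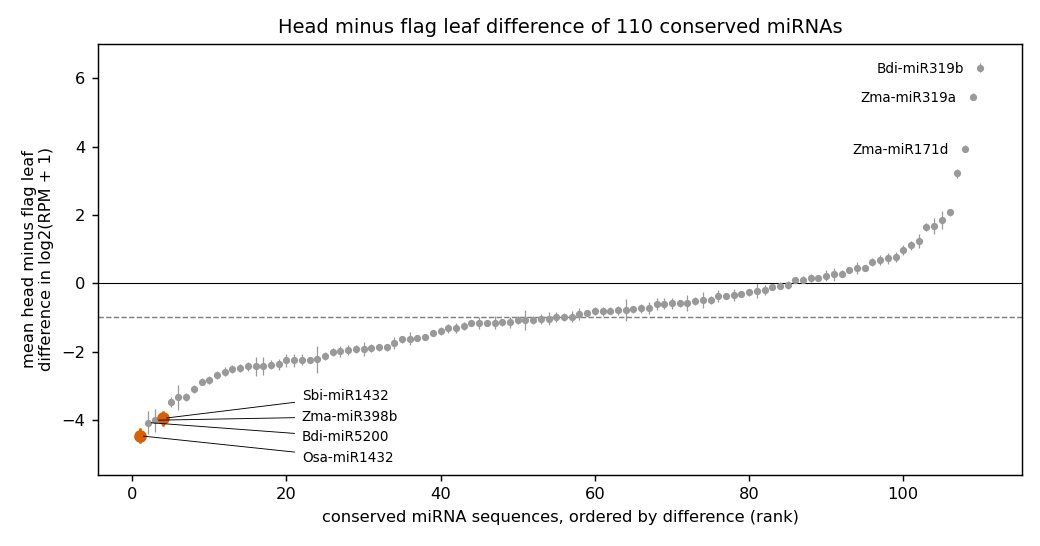
Mean difference in log2(RPM + 1), head minus flag leaf, over 8 comparisons of genotype and treatment, with its SE, for 110 conserved miRNA sequences in rank order; the dashed line is their median, -0.98. Osa-miR1432 (-4.46) lies at the lower end and Sbi-miR1432 (-3.95) 3 places above it.

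The 6 head libraries all lay below the 6 flag leaf libraries in 7 of the 8 comparisons, for both sequences. The share of all 110 miRNAs that separated this way was 26.4% in Tamaroi control, 35.5% in stressed Tamaroi, 31.8% in EGA Bellaroi control, 36.4% in stressed EGA Bellaroi, 35.5% in Yawa control, 35.5% in Tjilkuri control and 46.4% in stressed Tjilkuri. The comparison that overlapped was stressed Yawa, where 20.9% of the miRNAs separated. There the lowest flag leaf library had 5.84 RPM of Osa-miR1432 and the highest head library 6.29 RPM.

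The difference was also measured against the other conserved miRNAs. MIR1432 made up 0.0621% to 2.28% of all conserved miRNA reads in flag leaves, with a median of 0.561%, and 0% to 0.242% in heads, with a median of 0.0577%. When libraries were scaled by the median ratio over 71 miRNAs, the median difference of the 110 shrank to between -0.30 and -0.19, and 31 to 38 miRNAs were lower and 24 to 30 higher in the head, against 49 to 64 lower and 8 to 17 higher on the RPM scale. Under this scaling Osa-miR1432 was still lower in heads by -4.80 to -2.99 and Sbi-miR1432 by -4.06 to -2.29 on the log2 scale, and both were called in 8 of 8 comparisons.

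Water deficit left MIR1432 within the spread of the replicates in 7 of the 8 combinations of genotype and tissue, and lower in the eighth, the Yawa head. The 14 values outside Yawa heads, 7 comparisons by 2 sequences, ranged from -1.18 to 0.34 on the log2 scale, 12 of them below 0. The sequences move together, so these are not 14 independent values. The lowest limma adjusted p was 0.35 (the lowest unadjusted p was 0.063). In those 7 comparisons 0% of the 110 miRNAs passed the threshold in either direction, with 3 to 15 at an unadjusted p under 0.05. The 95% limma interval of the Osa-miR1432 change in the flag leaf ran from -1.72 to 0.69 in Tamaroi, from -0.92 to 1.49 in EGA Bellaroi, from -2.19 to 0.22 in Yawa and from -1.77 to 0.64 in Tjilkuri.

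In Yawa heads, control plants had 12.6 (1a), 5.96 (1b), 4.51 (1c), 7.18 (2a), 21.3 (2b) and 8.39 (2c) RPM of Osa-miR1432. Stressed Yawa heads had 0.218 (1a), 6.29 (1b), 2.80 (1c), 1.47 (2a), 0 (2b) and 0.252 (2c) RPM. Only stressed head 1b reached into the control range, and 1a, 2b and 2c rested on 1, 0 and 1 reads. The log2 change was -2.18 ± 0.60 (SE, limma adjusted p = 0.0056), with a mean at 0.184 of the control mean.

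Sbi-miR1432 ran from 4.51 to 17.6 RPM in the control Yawa heads. In stressed heads it stood at 0.436 (1a), 4.19 (1b), 2.10 (1c), 2.52 (2a), 0.250 (2b) and 0 (2c) RPM. All 6 stressed values lay below all 6 control values, a separation that 2.73% of the 110 miRNAs showed in this comparison. Its log2 change was -1.97 ± 0.54 (SE, limma adjusted p = 0.0056).

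The fall in Yawa heads took place among a general one. Of the 110 miRNAs, 55.5% were lower in stressed Yawa heads and 0 were higher, with a median change of -0.99. Among the 17 other grass and monocot sequences, 10 were lower, with a median of -1.25. After median-ratio scaling, which moved the median of the 110 to -0.21 and left 12 lower and 3 higher, the changes were -1.98 for Osa-miR1432 and -1.72 for Sbi-miR1432, with limma adjusted p = 0.034 and 0.035. The conserved miRNAs summed to 5514, 6428 and 7879 RPM in stressed heads 1a, 2b and 2c, and to 16001 to 17125 RPM in the other 3, beside 15259 to 22398 RPM in control Yawa heads. As a share of conserved miRNA reads, MIR1432 averaged 0.0933% ± 0.0436 (SD, n = 6) in control and 0.0229% ± 0.0230 in stressed Yawa heads. In season 1 alone the Osa-miR1432 change was -1.32 (limma adjusted p = 0.39), and in season 2 alone -3.04 (limma adjusted p = 0.0082). Without the low stressed libraries the call was lost, with -1.26 (limma adjusted p = 0.92) for Osa-miR1432 and -1.14 (limma adjusted p = 0.92) for Sbi-miR1432. Those libraries were picked after their low values were seen, so leaving them out makes the fall smaller by construction.

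**Figure D3:**
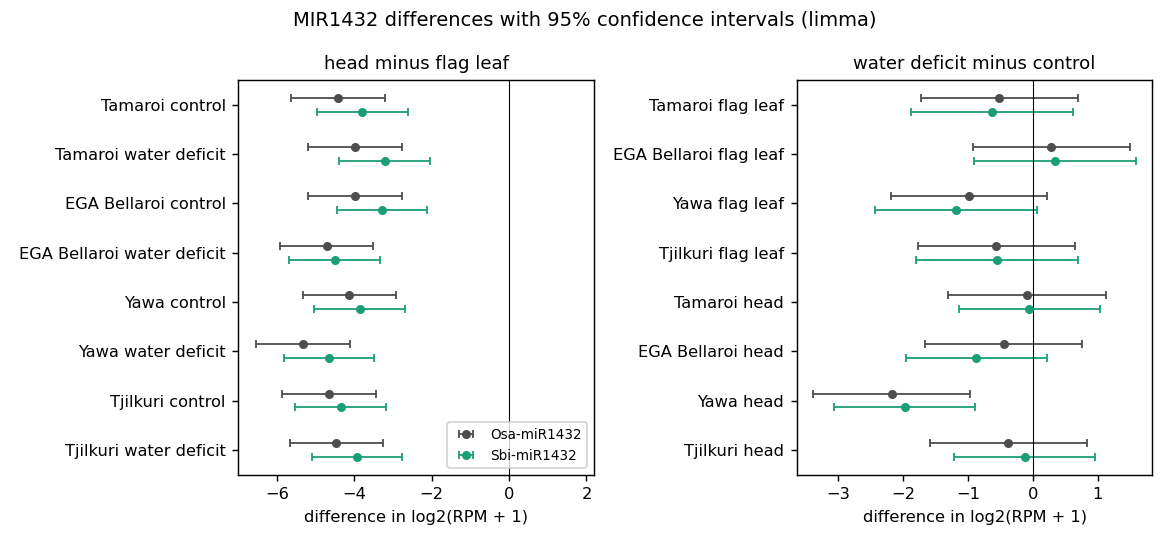
Difference in log2(RPM + 1) with its 95% confidence interval (limma) for Osa-miR1432 and Sbi-miR1432: head minus flag leaf in 8 combinations of genotype and treatment (left), and water deficit minus control in 8 combinations of genotype and tissue (right). The 16 tissue differences lie between -5.32 and -3.21, and among the treatment differences only those of the Yawa head, -2.18 and -1.97, have an interval below 0.

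The flag leaves of stressed Yawa plants had the widest spread of any group. Osa-miR1432 stood at 12.4 (1a), 236 (1b), 178 (1c), 474 (2a), 230 (2b) and 5.84 (2c) RPM, and Sbi-miR1432 at 7.83, 145, 117, 286, 168 and 2.55 RPM in the same order. Library 2a was the highest and 2c the lowest of all 48 flag leaf libraries for both sequences, so that the mean of the group sat beside the control mean while 2 of its 6 libraries lay far under the control range of 88.4 to 258 RPM. These 2 libraries were not shallow, with 6.77 and 6.68 M reads. Their conserved miRNA totals were 27778 RPM in 1a and 13510 RPM in 2c.

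Both low flag leaves came from plants whose heads were also low. Plants 1a and 2c had 0.218 and 0.252 RPM in the head, and the third low head, 2b, belonged to a plant with 230 RPM in its flag leaf. Tissue identity was checked on the miRNAs with the largest head excess. Bdi-miR319b, which ran from 1.35 to 15.7 RPM in all flag leaves and from 119 to 1197 RPM in all heads, stood at 5.17 and 1.35 RPM in the low flag leaves 1a and 2c and at 178, 148 and 119 RPM in the low heads 1a, 2b and 2c. Zma-miR171d, of a family that regulates GRAS transcription factors, ran from 2.63 to 11.2 RPM in flag leaves and from 38.2 to 232 RPM in heads. On these miRNAs the low libraries stood with their labelled tissue, although the ranges include them and some of their values set the limits. For Bdi-miR319b the low heads were also under the other Yawa heads, which had 472 to 836 RPM.

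**Figure D4:**
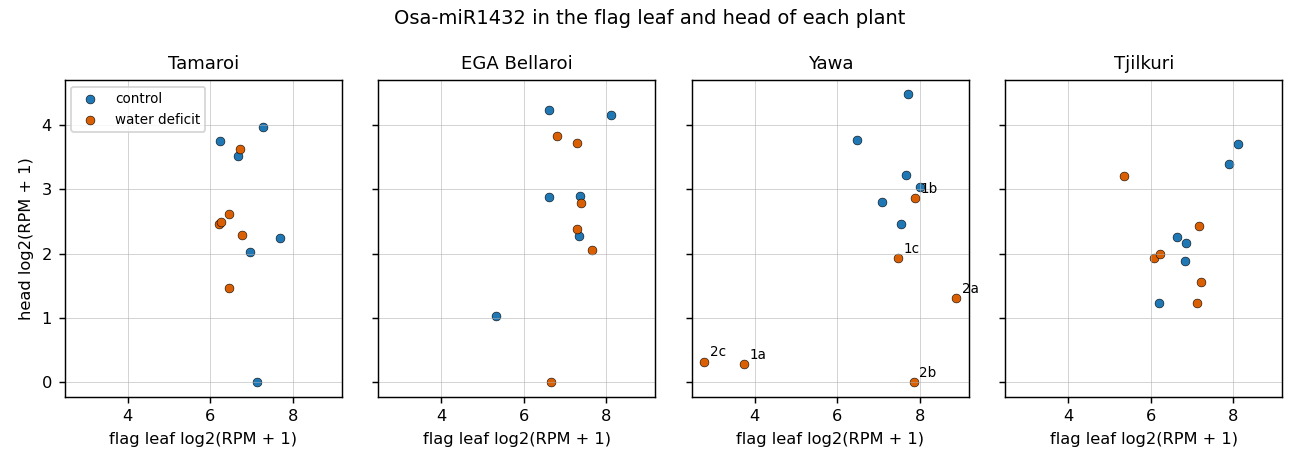
Osa-miR1432 as log2(RPM + 1) in the head (vertical) against the flag leaf (horizontal) of each of 48 plants, 1 panel per genotype, control in blue and water deficit in orange, with the season and letter of the 6 stressed Yawa plants. Yawa plants 1a and 2c lie at the lower left, low in both organs, and 2b is low in the head only.

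Across all 48 plants no tie between the levels in the 2 organs was shown once group means were removed. For Osa-miR1432 Pearson's r was 0.26 (permutation p = 0.078, adjusted p = 0.078 over the 2 sequences) and Spearman's rho 0.21 (permutation p = 0.20). For Sbi-miR1432 r was 0.28 (permutation p = 0.059) and rho 0.26 (permutation p = 0.092). Leaving out plants Yawa 1a and 2c, the farthest from the median in the flag leaf, gave r of 0.20 and 0.19 for the 2 sequences. Without the 6 stressed Yawa plants r was 0.20 for Osa-miR1432 and 0.15 for Sbi-miR1432 (permutation p = 0.30 and 0.35). Within season 1 r was 0.20 for Osa-miR1432 and within season 2 it was 0.32.

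Averaged over the 4 genotypes, water deficit changed Osa-miR1432 by -0.45 ± 0.30 (SE) in flag leaves and by -0.78 ± 0.30 in heads on the log2 scale. Neither passed the adjustment over 110 miRNAs (limma adjusted p = 0.67 and 0.25), although the head value had an unadjusted p of 0.013. Sbi-miR1432 gave -0.51 ± 0.31 in flag leaves and -0.76 ± 0.27 in heads (limma adjusted p = 0.67 and 0.25, unadjusted p = 0.11 and 0.0073). In both averages 0% of the 110 miRNAs were called by limma, with 11 in flag leaves and 10 in heads at an unadjusted p under 0.05. Among heads the Sbi-miR1432 value ranked 2nd and the Osa-miR1432 value 6th by unadjusted p. The control Tamaroi head 1b, with 0 reads of either sequence in 3.91 M, weighed on this average. Without it the Sbi-miR1432 change was -0.89 (limma adjusted p = 0.039). This was the only call among 48 fits that each left out 1 head library, which ranged from -0.89 to -0.65. Leaving out a control library at 0 can only enlarge the fall.

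No difference between tolerant and sensitive genotypes passed the threshold for either sequence. The 16 values, Tamaroi minus EGA Bellaroi and Yawa minus Tjilkuri in each tissue and treatment, ranged from -0.94 to 0.97, 8 of them below 0 (lowest limma adjusted p = 0.19). The share of the 110 miRNAs called in either direction was 29.1% for Yawa minus Tjilkuri in stressed heads, 7.27% for Tamaroi minus EGA Bellaroi in control heads, 1.82% in stressed heads and 0.909% in stressed flag leaves of the same pair, and 0% in the other 4, where 11 to 17 had an unadjusted p under 0.05. In stressed flag leaves of Yawa and Tjilkuri the ratio of mean RPM was 1.86 for Osa-miR1432 while the log2 difference was -0.09 ± 0.60 (SE, limma adjusted p = 0.99) with libraries 1a and 2c in the fit. Without the low Yawa libraries the difference was 1.50 for Osa-miR1432 and 1.49 for Sbi-miR1432 (limma adjusted p = 0.048 for both). These libraries were left out after their low MIR1432 values were seen, which raises the Yawa mean by construction. The p-value is therefore no evidence of a genotype difference.

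The tolerance by treatment interaction was -0.66 ± 0.43 (SE) for Osa-miR1432 and -0.66 ± 0.42 for Sbi-miR1432 (limma adjusted p = 0.21 for both). For this interaction 25.5% of the 110 miRNAs were called, all with a negative value. A negative value means that the change under water deficit was lower in tolerant than in sensitive genotypes. It does not say in which genotypes the level moved. All 96 libraries entered the model together, with tissue as an additive term. This fit treats the flag leaf and head of a plant as independent. With the plant as a block, chosen after seeing the data, the SE rose to 0.53 for Osa-miR1432 and 0.52 for Sbi-miR1432 (limma adjusted p = 0.37 for both), and 3 of the 110 miRNAs were called in place of 28. Without the 5 low Yawa libraries, also left out after seeing the data, both values were -0.07. The interaction of tissue and treatment ranged from -1.22 to 0.58 over the 4 genotypes and both sequences, with a lowest limma adjusted p of 0.43 and 0% of the miRNAs called in any genotype (0 to 8 at an unadjusted p under 0.05). The tissue difference was thus not shown to change under water deficit. In Yawa the interaction was -1.19 ± 0.86 for Osa-miR1432.

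Season left MIR1432 within the replicate spread as well. Season 2 minus season 1 was 0.09 ± 0.30 (SE) in flag leaves and -0.17 ± 0.30 in heads for Osa-miR1432, and 0.17 ± 0.31 and 0.25 ± 0.27 for Sbi-miR1432 (lowest limma adjusted p = 0.72), where 2.73% of the miRNAs in flag leaves and 8.18% in heads were called in either direction. The tissue difference was called in 8 of 8 comparisons for both sequences within each season. Such a call was common, with 36 to 55 of the 110 miRNAs lower in the head in season 1 alone and 31 to 57 in season 2 alone.

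On average over plants, the proportion of the 2 sequences among MIR1432 reads also differed between tissues, a measure taken within each library. In flag leaves Osa-miR1432 made up 60.2% ± 3.68 (SD, n = 48) of MIR1432 reads, and more than 50% in 48 of 48 libraries, from 51.6% to 69.6%. In heads it made up 50.6% ± 17.7 (n = 47, since control Tamaroi head 1b had no reads), and more than 50% in 26 of 47 libraries. Pooled over reads, the share was 60.4% of 73400 reads in flag leaves (95% Wilson interval 60.0% to 60.8%) and 52.3% of 2855 reads in heads (50.5% to 54.2%). Counting error alone would give an SD of 1.81 points in flag leaves and 16.4 points in heads.

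Over the 47 plants with both shares, the head share was lower by 9.54 percentage points on average, in 40 of 47 plants (permutation p = 0.00021 by sign flips, adjusted p = 0.0036 over 17 tests). With libraries of at least 20 reads only, the difference was -7.92 points, lower in 32 of 36 plants (permutation p = 3.0e-05, adjusted p = 0.00045). Within season 2 it was -14.0 points (adjusted permutation p = 0.0088), and within season 1 it was -4.84 points and did not pass (adjusted permutation p = 0.31), though 20 of 23 plants had the lower share in the head. Group by group, only control EGA Bellaroi passed the exact permutation test of 6 against 6 libraries, with 46.7% ± 7.21 in heads and 59.7% ± 3.76 in flag leaves (adjusted p = 0.037). With at least 20 reads a library that call was lost (-11.6 points, 5 head libraries, adjusted exact permutation p = 0.065). Over all groups the mean difference ran from -14.3 points in stressed Yawa to -4.17 in control Yawa. Control Tjilkuri did not hold to it, with 0.02 points at 20 reads or more and pooled shares of 62.3% in heads and 60.9% in flag leaves. In season 1 alone the head share was higher in control Tjilkuri (7.48 points) and stressed EGA Bellaroi (13.4 points), neither called. The deepest head library, control EGA Bellaroi 1c with 441 MIR1432 reads, had a share of 52.4%. The low stressed Yawa flag leaf 1a had a share of 61.3% of 137 reads (Wilson interval 53.0% to 69.1%). Flag leaf 2c had 69.6% of 56 reads (56.7% to 80.1%). Some head libraries also lay inside both intervals, among them control Yawa 2c at 62.5% and stressed Tjilkuri 1b at 61.1%. The share therefore cannot assign the low flag leaves to a tissue. Water deficit moved the share by -0.97 to 4.02 points in the 4 flag leaf groups and by -6.11 to 4.88 points in the 4 head groups (lowest adjusted p = 0.13, exact permutation test). Up to 2 mismatches were allowed when reads were matched, and the sources used here do not say to which sequence a read fitting both was assigned.

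**Figure D5:**
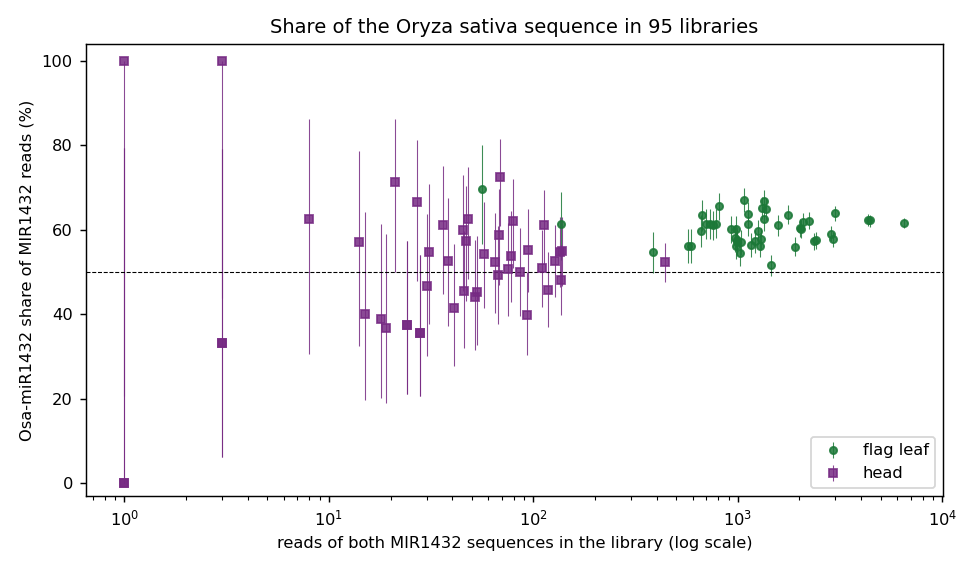
Share of Osa-miR1432 among the reads of both MIR1432 sequences, in percent with its 95% Wilson interval, against the number of those reads (log scale), for 48 flag leaf and 47 head libraries; the dashed line marks 50%. All flag leaf libraries lie above the line, between 51.6% and 69.6%, while heads spread to both sides of it and widen as reads become few.

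The 2 sequences otherwise moved together. Over the 96 libraries their deviations from group means correlated with r = 0.91, and with r = 0.98 within the 48 flag leaf libraries and 0.83 within the 48 head libraries. These values describe libraries that share depth and preparation. By group means of log2(RPM + 1) over the 16 groups, the other miRNAs most like Osa-miR1432 were Bdi-miR827-5p (r = 0.98), Ath-miR159b (0.98), Tae-miR159b (0.98), Ath-miR159a (0.98) and Zma-miR166h (0.97). The miR159 family regulates GAMYB transcription factors and miR166 the HD-ZIP III factors. A high r was usual here, with a median of 0.80 over 108 miRNAs, and the 16 points fall into 2 clusters by tissue. Bdi-miR827-5p also came near MIR1432 in ratio, with mean levels of 30.5 RPM in flag leaves and 1.71 RPM in heads. After median-ratio scaling only 1 of these 5 stayed among the first 5, Bdi-miR827-5p.

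Within groups, the miRNAs whose deviations were most like those of Osa-miR1432 over the 96 libraries were others: Osa-miR5071 (r = 0.68), Bdi-miR396a (0.66), Osa-miR444b (0.65), Gma-miR393h (0.65) and Bdi-miR5064 (0.63), beside a median of 0.28 over 108. All 5 stayed the first 5 after median-ratio scaling, and 3 did by rank correlation. The miR396 family regulates growth-regulating factors, miR444 MADS-box transcription factors and miR393 auxin receptors. None of the 5 is strongly tied to a tissue, with flag leaf to head ratios of mean RPM from 0.687 to 1.54.

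These miRNAs were low in the same stressed Yawa libraries. Those libraries were among the ones used to pick these miRNAs, so a shared low value is partly built into the choice. Osa-miR5071 stood at 7.53 and 2.85 RPM in flag leaves 1a and 2c and at 5.67, 3.50 and 3.78 RPM in heads 1a, 2b and 2c, beside medians of 61.6 RPM in all flag leaves and 55.8 RPM in all heads. Gma-miR393h stood at 0.739 and 0.599 RPM in those flag leaves and at 1.09, 0.250 and 0.252 RPM in those heads, against medians of 34.0 and 24.6 RPM. Not every miRNA was low there. Zma-miR171d in heads 1a, 2b and 2c, at 156, 232 and 167 RPM, was above its head median of 94.7 RPM, and in flag leaves 1a and 2c it stood at 5.17 and 7.04 RPM beside a flag leaf median of 5.68 RPM. What set these libraries apart was not tested.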

How the data were processed

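Small RNA libraries were made with the NEBNext kit from TriPure extracts. The authors trimmed reads to 15 to 50 nt and matched them in CLC Genomics Workbench (v7.0) to mature miRNAs of 9 plant species in miRBase (v20), allowing up to 2 mismatches. The deposited RPM values are relative to all small RNA reads, for sequences kept above 2 RPM in at least 48 of the 96 libraries. All values above 0 were whole multiples of 1 read within 0.01 reads, which gave depth and read numbers. A deposited table of 159 hairpins was not used, and 0 columns were left without a library.

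The members and gene lists were chosen with earlier results of these data known. Fits used limma (3.58.1, R 4.3.3) with a trended prior on log2(RPM + 1), on the 48 libraries of a tissue or all 96, 2-sided, adjusted over 110 miRNAs per comparison. This log scale understates changes of low miRNAs. Shares were compared by exact permutation of libraries, or 100000 sign flips over plants, 2-sided, with Wilson intervals (scipy 1.17.1, Python 3.11.15, numpy 2.4.6, pandas 2.3.3, matplotlib 3.10.9). The fit was also run on simulated data with independent noise in each library around flag leaf levels. That run leaves out the tie between organs of a plant and the low head levels, and no result here rests on it. Other miRNAs were named if they were among the 5 most correlated with Osa-miR1432 over 16 group means, or over deviations in 96 libraries, or passed MIR1432 in tissue difference. Zma-miR171d and Bdi-miR1878 were named after their values were seen.

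The labels give both organs of a plant 1 plant number. Their deviations from group means correlated with a median r of 0.51 over 48 pairs (43 over 0.1), so the plant was tried as a block. Other alternatives were the pseudocount (0.1 and 10), a filter (above 10 RPM in at least 48 libraries, which kept 62 miRNAs), median-ratio scaling, season as covariate, each season alone, season and letter as block, only the 12 libraries compared, robust variances, and leaving out each library. Leaving out 5 low stressed Yawa libraries (flag leaf 1a and 2c, head 1a, 2b and 2c) and the plant block for the tolerance by treatment interaction were chosen after seeing the data. Shares were also compared in libraries with at least 20 MIR1432 reads and in each season alone.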

Additional observations from a re-analysis of the deposited data

Results flagged for a closer look

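Of 32 tests for a library far from the rest of its group of 6, 3 marked one, each the highest library of a Tamaroi group. Sbi-miR1432 stood at 192.9 RPM in control Tamaroi flag leaf 2b, with the next library of the group at 98.6 RPM. In stressed Tamaroi head 2a, Osa-miR1432 stood at 11.32 RPM (54 reads) beside a next value of 5.13 RPM, and Sbi-miR1432 at 13.41 RPM (64 reads) beside 6.36 RPM. The last 2 come from 1 library and are not independent. Chance marks about 1 in 20 such groups.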

How the results depend on the processing

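The 16 tissue calls held under every alternative run, the plant block included, where Osa-miR1432 in stressed Yawa was again -5.32 (limma adjusted p = 2.6e-16). With that block 56 to 74 of the 110 miRNAs were lower in the head. The season and letter block, whose labels do not say that letters pair plants (median r 0.08 over 48 same-label pairs), gave -2.18 and -1.97 in Yawa heads (limma adjusted p = 0.0072) and changed no MIR1432 call among the treatment, genotype and tolerance comparisons it was run on. The plant block on the tolerance by treatment interaction left both values at -0.66, uncalled, and took the calls over all miRNAs from 28 to 3.

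The Yawa head calls were lost in season 1 alone (-1.32 for Osa-miR1432, -1.42 for Sbi-miR1432) and without the 5 low stressed Yawa libraries (-1.26 and -1.14), so the treatment calls went from 2 to 0 under both. Leaving out 1 library gave -2.53 to -1.94 and -2.23 to -1.75. The averaged head change of Sbi-miR1432 ranged from -0.89 to -0.65 and was called only without control Tamaroi head 1b. Genotype calls went from 0 to 2 without the 5 libraries, both in Yawa minus Tjilkuri stressed flag leaves (1.50 and 1.49). As the libraries were picked for low values, these calls are no evidence of a genotype difference. That difference also turned positive with a pseudocount of 10 (0.12 and 0.16), with median-ratio scaling (0.18 and 0.084) and, for Osa-miR1432, in season 2 alone (0.24), and ranged from -0.58 to 0.65 and from -0.63 to 0.63 with 1 library left out. The share difference over plants was -4.84 points in season 1 alone. The cause was not tested. The 2 planned tests on recovered counts were not run. Heads limit precision, with a median of 22.5 reads of Osa-miR1432 and 14 of 48 libraries under 10 reads.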
